A study of Homo sapiens with 2 samples.

Results

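The genes described here are 10 genes of the NF-kB pathway that are among those altered in multiple myeloma: NFKB1, NFKB2, REL, RELA, RELB, NFKBIA, TNFAIP3, CYLD, TRAF3 and BIRC3. They were examined for binding of PRDM1 (BLIMP-1), a zinc finger repressor that drives B cells to become plasma cells. A peak was assigned to a gene when its summit lay inside the gene or within 25 kb of it, on GRCh37 and with gene ends in whole kb. This rule uses position only and no measured value. It found 8 of the 9669 deposited peaks, in the windows of 7 of the 10 genes.

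Binding was read by ChIP-seq, the sequencing of DNA pulled down with an antibody from sheared nuclei, in the myeloma cell line U266. One library was made from PRDM1 immunoprecipitates with a rabbit monoclonal antibody, and the other from input DNA of the same line without antibody. Neither library carries a treatment or a genotype change in its labels. The series title names ELL3, an elongation factor, in activated B lymphocytes, and its design mentions 2 myeloma lines, while both libraries used here are labelled as the line U266. Their growth protocol, which opens with U266, also names the myeloma line NCI-H929. A peak list holds no expression values, so the plasma cell identity of the line could not be checked against markers. With 1 library of each kind there is no replicate, so every interval below covers counting error only, and no test between conditions was possible.

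NF-kB is a family of dimeric transcription factors that are kept inactive in the cytoplasm by inhibitor proteins. In the canonical branch, an IkB kinase complex marks the inhibitor NFKBIA for destruction and frees dimers of RELA or REL with the processed NFKB1 product. In the alternative branch, the kinase NIK (the product of MAP3K14) triggers processing of NFKB2, whose product pairs with RELB. A complex of TRAF3, TRAF2 and the BIRC2 and BIRC3 ubiquitin ligases keeps NIK low, and the deubiquitinases TNFAIP3 and CYLD restrain the canonical branch. In myeloma, loss of TRAF3, CYLD or BIRC2 and BIRC3 is a known route to constant NF-kB activity. The copy number and sequence of these genes in U266 were not measured here.

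The 3 genes whose nearest upstream summit lay within 5 kb of the gene start were NFKB1, RELA and BIRC3. The 250 bases before the first start that RefSeq lists for each (GRCh38.p14) are shown because they are the promoter sequence closest to a member peak. The sequences under the peaks were not read, since no genome of the files' build was used here. Some printed bases may still lie under a peak at RELA. Its summit lay 1.58 kb upstream of the rule's gene end, and the rule's gene is 1.26 kb shorter than in RefSeq. The positions printed with the sequences are on GRCh38.p14 and cannot be set beside the peak positions. Capitals mark GAAAG, the core of the PRDM1 motif, or GTGAAA, a longer form of it that shares the GAAA, on either strand.
RELA, minus strand, chr11:65663858-65664107: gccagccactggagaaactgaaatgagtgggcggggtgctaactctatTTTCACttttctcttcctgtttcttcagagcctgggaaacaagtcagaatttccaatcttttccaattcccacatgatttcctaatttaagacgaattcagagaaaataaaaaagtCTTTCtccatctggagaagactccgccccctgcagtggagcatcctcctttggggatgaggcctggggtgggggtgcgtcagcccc
NFKB1, plus strand, chr4:102501109-102501358: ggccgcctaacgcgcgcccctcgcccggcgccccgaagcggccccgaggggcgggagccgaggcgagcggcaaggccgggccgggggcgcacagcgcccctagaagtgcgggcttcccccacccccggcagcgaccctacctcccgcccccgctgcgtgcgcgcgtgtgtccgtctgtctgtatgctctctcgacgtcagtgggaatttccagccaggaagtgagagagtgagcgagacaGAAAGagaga
BIRC3, plus strand, chr11:102317234-102317483: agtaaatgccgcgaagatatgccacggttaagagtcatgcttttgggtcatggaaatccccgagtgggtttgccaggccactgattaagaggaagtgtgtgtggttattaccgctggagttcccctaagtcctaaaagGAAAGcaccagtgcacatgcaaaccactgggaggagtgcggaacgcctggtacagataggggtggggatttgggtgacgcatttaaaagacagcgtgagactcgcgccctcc

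RefSeq listed 15 starts for 9 of the 10 genes, and RELB had none in the table. GAAAG lay in 8 of the 15 stretches of 250 bases (53.3%), against 48.9% of 35116 such stretches before all listed starts. GTGAAA lay in 2 of the 15 (13.3%, against 10.6% of all), before the first RELA start and the last of 3 NFKB2 starts. The stricter AGTGAAAG lay in none of the 15 and in 1.08% of all. The consensus for NF-kB itself, the kappaB consensus, lay in 9 of the 15, before starts of 8 of the 9 genes, against 5.21% of all. The stretches before CYLD starts 1 and 2 overlap, and the median share of G and C was 72% in the 15 and 58% in all. Each match is a description of letters, searched on both strands, and not a measured site.

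The PRDM1 peaks near these genes were of the middling strength of the complete list and below the authors' filtered list. The 8 peaks held 11 to 24 tags, where a tag is 1 aligned read kept after removal of duplicates. None reached the authors' filtered list, which asks for 50 tags or more and an FDR no higher than 5%, and which 9.17% of all deposited peaks passed. The FDR is the caller's false discovery rate, the number of peaks called with PRDM1 and input swapped as a percent of those called the right way. At an FDR of at most 5% alone, 3 of the 8 peaks remained (37.5%), at BIRC3, NFKBIA and NFKB1, against 43.5% of all deposited peaks. The median of the 8 was 14.5 tags, beside 15 in the complete list, and their median FDR was 8.20%, beside 8.13%.

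**Figure D1:**
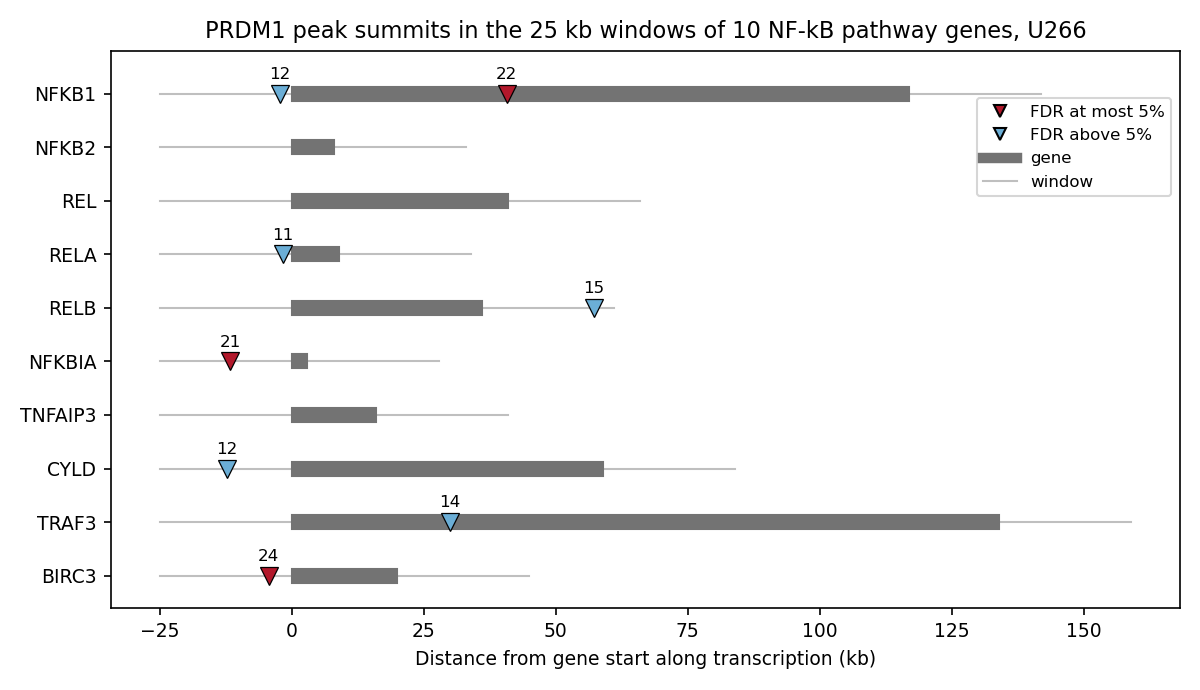
Each row is 1 gene, drawn from its start along transcription in kb, with the gene as a dark bar and the 25 kb flanks as a thin line. Triangles mark peak summits with their tag counts, red at an FDR of at most 5% and blue above it; NFKB2, REL and TNFAIP3 have none.

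**Figure D2:**
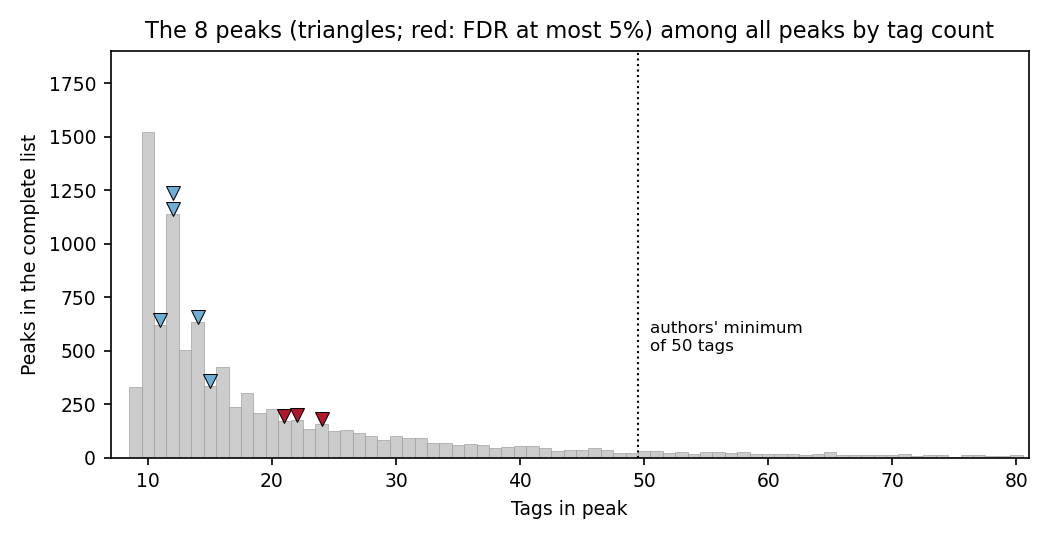
Grey bars count the peaks of the complete list by tags, up to 80 tags, and triangles mark the 8 peaks at the 10 genes. All 8 lie between 11 and 24 tags, to the left of the dotted line at the authors' minimum of 50 tags.

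NFKB1, which encodes the precursor of a DNA-binding subunit, was the only gene of the 10 with more than 1 peak. The first summit lay at position 103419750 of chromosome 4, 2.25 kb upstream of the gene start, in a peak from 103419358 to 103420013. Its 12 tags were 6.29 times the number expected from the input background after scaling (95% Poisson interval 3.25 to 11), with an FDR of 8.24%. The second summit lay inside the gene, 40.7 kb from the start, in a peak from 103462373 to 103463531. It held 22 tags over a width of 1159 bp, 6.53 times the expected number (4.09 to 9.88), and its FDR was 0.42%. The inner peak had more tags but was also wider than the 656 bp of the upstream one, and their ratios to background differed by far less than either interval. At its summit the upstream peak was 8 tags high and the inner peak 7.

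RELA, the main activating subunit of the canonical branch, had the peak closest to a gene start and the fewest tags. Its summit lay at position 65431579 of chromosome 11, 1.58 kb upstream of the gene end that carries the start, in a peak from 65431353 to 65431929. The 11 tags were 6.55 times the expected number (3.27 to 11.7) and the FDR was 20.3%, the highest of the 8. RefSeq lists a second start for RELA, and the 2 starts lie 941 bases apart within its own build; the sequence before the outer one is printed above. Whether the peak covers that outer start was not measured, because the files and RefSeq use different builds. The rule's RELA gene is 1.26 kb shorter than in RefSeq, so the outer start may lie at or near the peak. The 1.58 kb is the distance from the rule's gene end only. RELA-DT overlaps RELA in RefSeq, so the tags cannot be given to 1 of these transcripts.

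RELB, the subunit of the alternative branch, had its peak on the far side of the gene. The summit lay at position 45562269 of chromosome 19, 21.3 kb past the gene end, which makes it the member farthest from its gene. It held 15 tags, 5.18 times the expected number (2.90 to 8.54), with an FDR of 8.15%. The next gene on that side in RefSeq is CLASRP, and the peak was not assigned between these genes. No peak was listed in the windows of NFKB2, the precursor that NIK acts on, or of REL, a subunit prominent in B cells. The nearest summit to NFKB2 lay 168.1 kb upstream with 9 tags and an FDR of 44.0%. The nearest to REL lay 54.9 kb upstream with 23 tags, 7.41 times the expected number, and an FDR of 0.19%, and another with 17 tags lay 63.4 kb upstream. REL-DT and PAPOLG are the next RefSeq genes on that side of REL.

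NFKBIA, the inhibitor that NF-kB itself induces, had 1 peak that passed the FDR limit. Its summit lay at position 35885636 of chromosome 14, 11.6 kb upstream of the gene, in a peak from 35885246 to 35885887. The 21 tags in 642 bp were 8.48 times the expected number (5.25 to 13), with an FDR of 0.27% and a deposited fold at the summit of 15.5. The summit height was 13 tags, the second highest of the 8. No protein-coding gene lies between NFKBIA and INSM2 on that side in RefSeq.

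The deubiquitinases differed in that CYLD had a peak in its window and TNFAIP3 had none, a difference of 1 weak peak. The CYLD summit lay at position 50763705 of chromosome 16, 12.3 kb upstream of the start. It held 12 tags, 6.26 times the expected number (3.24 to 10.9), with an FDR of 8.33%. NOD2 is the neighbour of CYLD on that side, and the peak was not assigned between them. Farther upstream lay 3 more summits within 100 kb of CYLD, of 20, 17 and 10 tags at 43.7, 60.7 and 94.5 kb, and only that of 20 tags passed the FDR limit, at 1.34%. The nearest summit to TNFAIP3 lay 130.1 kb upstream with 14 tags and an FDR of 42.4%.

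BIRC3, a ubiquitin ligase of the complex that degrades NIK, had the strongest peak of the 10 genes. Its summit lay at position 102183688 of chromosome 11, 4.31 kb upstream of the start, in a peak from 102183265 to 102184132. The peak held 24 tags in 868 bp, 9.50 times the expected number (6.09 to 14.1), with an FDR of 0.12% and a deposited fold of 22.1. By score it ranked 1725 of the 9669 peaks, so 17.8% of the deposited peaks scored higher. The BIRC3 sequence printed above ends at the start and does not reach 4.31 kb upstream, so its GAAAG is not under the summit. The nearest peak of the filtered list lay 14050 kb from BIRC3.

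TRAF3, the adaptor that holds NIK in that complex, had 1 weak peak inside the gene. The summit lay at position 103273988 of chromosome 14, 30.0 kb from the start, in a peak from 103273789 to 103274286. The 14 tags were 5.10 times the expected number (2.79 to 8.56), with an FDR of 11.3%. The input background solved from the score was 1.89 times the genome mean there, the highest of the 8 peaks. This background is not a count of input tags at the peak and does not cover the rest of the gene. The copy number of TRAF3 was not measured. TRAF3 also had the longest window, 184 kb, and 37.2% of all adjacent windows of that length held a peak.

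Ranked by tags over expected, the order of the 8 peaks was BIRC3, NFKBIA, RELA, the inner NFKB1 peak, the upstream NFKB1 peak, CYLD, RELB and TRAF3, from 9.50 down to 5.10. Each interval overlapped that of its neighbour in this order, and the interval of BIRC3 (from 6.09) overlapped that of TRAF3 (to 8.56). The median of the 8 was 6.41 times, beside 5.88 times in the complete list and 10.4 times in the filtered list. The input background was 1.00 times the genome mean, the lowest value the caller allows, at 4 peaks: both of NFKB1 and those of RELA and BIRC3. It was 1.14 times at CYLD, 1.33 times at NFKBIA and 1.55 times at RELB. The median was 1.07 times, beside 1.26 times in the complete list.

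**Figure D3:**
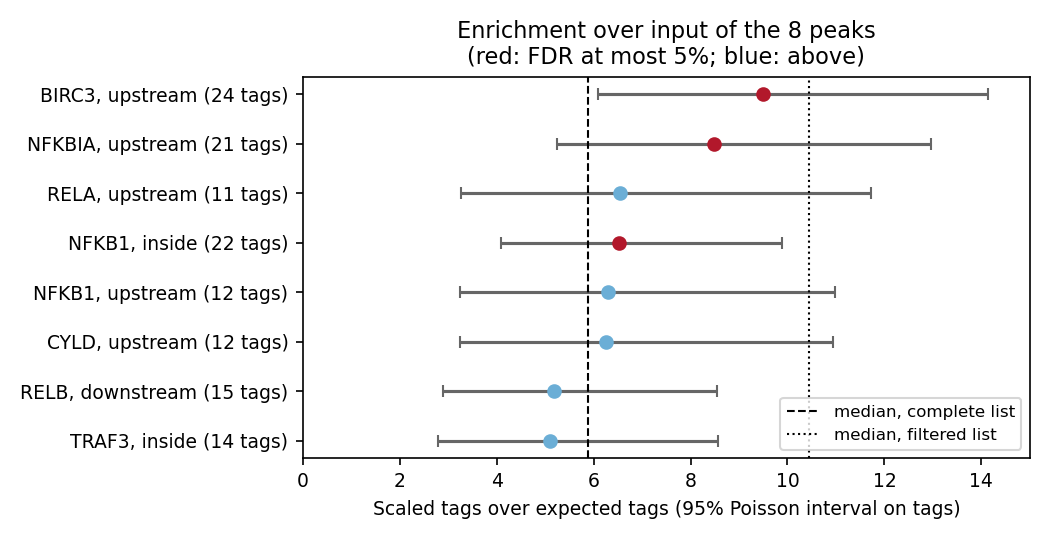
Points give scaled tags over expected tags for each of the 8 peaks and bars the exact 95% Poisson interval on the tags. The points run from 5.10 at TRAF3 to 9.50 at BIRC3, all intervals overlap, and the dashed and dotted lines mark the medians of the complete list (5.88) and of the filtered list (10.4).

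Most of the 8 summits lay outside the genes. The genes took up 44.3 kb of the mean window of 94.3 kb, so the larger part of the length searched also lay outside them. Upstream of the start lay 5 of them, at RELA, NFKB1, BIRC3, NFKBIA and CYLD, from 1.58 to 12.3 kb. Inside a gene lay 2, at NFKB1 and TRAF3, and downstream lay 1, at RELB. Measured from the gene ends of the rule, 3 summits lay within 5 kb of a start and none within 1 kb. These distances depend on the gene ends and the start chosen. The gene lengths differ from those in RefSeq by 1.26 kb at RELA, 1.92 kb at BIRC3 and 9.04 kb at REL. RELA has a second listed start, 941 bases from the other. Measured from the outer of these, the RELA summit could lie within 1 kb.

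The windows held more peaks than the mean density of the list gives. The 10 windows span 0.943 Mb, over which the mean density of the list gives 3.38 peaks against the 8 found, or 2.95 at the density of the genes' own chromosomes. The density was 8.48 peaks per Mb (95% Poisson interval 3.66 to 16.7) beside 3.58 over the 2700 Mb effective genome, a ratio of 2.37 (1.02 to 4.67). By gene, 7 of 10 windows held a summit, where 22.9% of all adjacent windows as long as their mean (94.3 kb) did. Among peaks with an FDR of at most 5%, 3 of 10 windows held one, against 11% of adjacent windows, and the 3 peaks compare with 1.47 from the mean density, a ratio whose interval (0.421 to 5.97) includes 1. In the filtered list they were 0 of 10 against 2.59%, and 0 peaks against 0.310. Adjacent windows cover gene-poor sequence and assembly gaps as well. Windows around other genes of the genome were not compared, so this is a description of 10 places and nothing particular to the pathway.

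The width of the flank set how many genes had a peak. Without a flank 2 of the 10 genes held a summit, against 12.1% of adjacent windows of their mean length. With 10 kb it was 4 against 16.7%, and with 25 kb 7 against 22.9%. With 50 kb it was 7 against 31.6%, and with 100 kb 8 against 44.4%. No filtered peak lay within 100 kb of any of the 10, where 6.30% of adjacent windows as long as the mean window at that flank held one. The nearest filtered peak to any of the 10 genes was 248.5 kb from RELB with 59 tags, followed by 563.2 kb from NFKB2 with 85 tags.

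The windows of some other genes of the pathway held peaks of up to 69 tags, beside at most 24 in those of these 10. The list of other genes held 23 genes, receptors and adaptors, kinases and scaffolds, and inhibitors, placed in the same way. A summit lay in the windows of 14 of the 23 (60.9%), where 20.5% of adjacent windows of their mean length held one. At an FDR of at most 5% it was 10 of 23 against 9.76%, and in the filtered list 3 of 23 against 2.27%. These 23 windows held 22 peaks with a median of 19 tags, beside 15 in the complete list. Of the 22, 14 passed the FDR limit (63.6%), against 43.5% of all deposited peaks. In tags over expected, the median of the 22 was 6.02 times, beside 6.41 times at the 8 peaks of the 10 genes and 5.88 times in the complete list. The difference between the lists of 10 and 23 genes was not tested.

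The 3 genes with filtered peaks were TRAF2, MYD88 and BCL3. The ends of the 23 genes were entered in whole kb, so a distance below 1 kb does not fix the side of a start or end. TRAF2, the adaptor that bridges TRAF3 to the BIRC ligases, had a summit 0.380 kb inside its start with 66 tags, 11.8 times the expected number (9.15 to 15), and a second of 37 tags farther in. MYD88, the adaptor of Toll-like and interleukin receptors, had one 0.105 kb from its start with 62 tags, 11.3 times the expected number (8.63 to 14.4). Another of 69 tags lay 22 kb past the end of MYD88, and it was not assigned between MYD88 and its neighbours. BCL3, a nuclear relative of the inhibitors, had 59 tags at a summit 5.46 kb inside the gene. MAP3K14, which encodes NIK, had 2 peaks at an FDR of at most 5%. One of 42 tags, 3.65 times the expected number, lay 0.221 kb past its end. The other, of 35 tags and 12.4 times the expected number, lay 4.48 kb inside its start. Of NIK and the complex that controls it, TRAF2 and MAP3K14 thus had peaks of 35 to 66 tags, BIRC3 had 24, TRAF3 had 14 and BIRC2 had no peak in its window. The order differed in tags over expected. There the TRAF2 and MAP3K14 peaks ran from 3.65 to 12.4 times, with BIRC3 at 9.50 and TRAF3 at 5.10.

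The other 6 genes with a peak at an FDR of at most 5% were CD40 (2 such peaks, of 20 and 18 tags), TNFRSF13B (12 tags), CHUK (32 tags), MALT1 (24 tags), NFKBIZ (14 tags) and TNIP1 (33 tags). CD40 and TNFRSF13B are receptors of B cells, CHUK is a subunit of the IkB kinase complex, MALT1 is the protease of the antigen receptor scaffold, and NFKBIZ and TNIP1 modulate NF-kB. By group, 4 of 11 receptors and adaptors, 3 of 7 kinases and scaffolds and 3 of 5 inhibitors and modulators had such a peak.

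**Figure D4:**
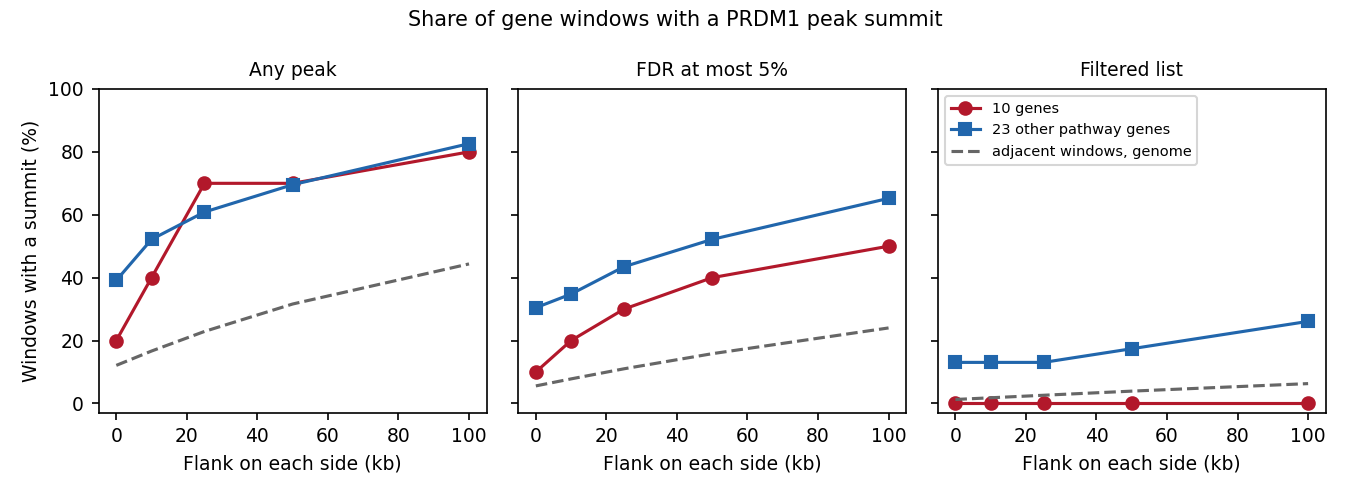
The 3 panels give the percent of gene windows that hold a summit against the flank in kb, for any peak, for an FDR of at most 5% and for the filtered list. Red circles are the 10 genes, blue squares the 23 other pathway genes and dashes all adjacent windows as long as the mean window of the 10 genes; in the right panel the 10 genes stay at 0 at each flank.

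At this depth a gene with no peak in the window is one where binding was not detectable, and not one shown to lack it. The PRDM1 library held 7854466 tags and the input 8556458 after duplicates were removed, or 2.91 and 3.17 tags per kb of effective genome. The smallest listed peaks held 9 tags, and 25.6% of the list held 9 to 11. NFKB2, REL and TNFAIP3 had windows of 58, 91 and 66 kb, and 15.3%, 22.2% and 17% of adjacent windows of those lengths held a peak.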

How the data were processed

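The submitters' processing notes name MACS 1.4, Bowtie 0.12.7 and CASAVA 1.8.2. Peaks were called with MACS 1.4.1 on merged alignments of each library, per the file headers. Tag counts per peak are raw counts after removal of duplicates, per the file headers. The deposited score is a multiple of −log10 of the Poisson p-value against the input, and the deposited fold is the ratio of summit height to local background. The FDR is in percent, as deposited by the authors. These values were used only to describe and rank peaks within the list.

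For the genome build, nothing is given in the sources used here. With chromosome lengths entered by hand, 0 peaks passed an end of GRCh37 and 53 one of GRCh38. Positions are as deposited. The 10 gene positions came with the choice of genes, and those of 23 other genes were entered by hand in whole GRCh37 kb. All 33 lay on the RefSeq chromosome, and 23 had the RefSeq length within 1 kb; the largest difference was 9.04 kb, at REL. BIRC2 and BIRC3 windows overlap.

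Tags were scaled by 1.09, the ratio of input to PRDM1 tags. The expected tags were solved from the score and the scaled tags rounded down, as the Poisson mean whose upper tail equals the deposited p. With the deposited fold this gave whole summit heights within 0.06 for 98.7% of 9667 peaks. The failed recoveries (45, below the genome mean) include 0 of the 8. Tags over expected are the scaled, unrounded tags divided by the expected tags. The solving and the window rule were tested on simulated data. Analysis used Python 3.11.15, scipy 1.17.1 and pandas 2.3.3. All 10 genes and each of their peaks are named, and of the 23 those with an FDR of at most 5%. The genes, lists and motifs were chosen with earlier results of these data known.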

Additional observations from a re-analysis of the deposited data

How the results depend on the processing

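The number of peaks at the 10 genes, 8 in 7 windows, was 3 peaks in 3 windows at an FDR of at most 5% and at most 1%, and 0 in 0 in the filtered list, since fewer peaks are left. It was 2 in 2 windows without a flank, 5 in 4 at 10 kb and 15 in 8 at 100 kb. The share of adjacent windows with a summit also rose with the flank, from 12.1% without one to 44.4% at 100 kb. Placing peaks by overlap or by centre left 8 peaks in 7 windows, and a flank of 50 kb gave 9 in 7. Limits of 10% and 20% for the FDR, and leaving out the downstream peak, were chosen after seeing the data and gave 6, 7 and 7 peaks. The density of 8.48 peaks per Mb became 0 with the filtered list and 3.18 with peaks at the 5% FDR limit. Of the 23 other genes, 14 had a peak, 7 at an FDR of at most 1%, 3 in the filtered list and 9 without a flank. Tags over expected of the 8 peaks changed by at most 16.2% with tags rounded to the nearest and 12.2% unscaled, within their intervals. Gene ends from an annotation of GRCh37 were not run, since none was used here. No paired analysis was possible because the input and the PRDM1 arm hold a single library each.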
